A study of Mus musculus with 9 samples.

Results

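The genes described here drive cell proliferation and DNA replication, and they were read in RNA of whole kidney from young and old mice. The set holds 45 genes named for their parts in replication licensing, S phase and mitosis, of which 44 had a probe set of their own on the array, out of 19938 genes measured. Each gene was represented by its probe set with the highest mean over the 9 arrays, among probe sets assigned to that gene alone. Cyclin B1, a mitotic cyclin, had no probe set that met this rule and was not analysed here.

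All animals were wild type female mice on a mixed FVB and C57BL6 background, so sex, genotype and strain were shared by both groups. The groups were 14 weeks old (4 arrays, 1 mouse each) and 96 weeks old (5 arrays). Per the methods 5 mice were taken per age, and 9 arrays were used here. The kidneys had been perfused and snap frozen before RNA extraction, and values are log2 expression after robust multi-array averaging (RMA), so that a difference of 1 is a doubling.

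A cell that leaves rest first raises its D-type cyclins, which activate the kinases that release E2F transcription factors. E2F targets then load the MCM helicase onto origins and supply nucleotides for S phase, and a later wave of genes builds the spindle, condenses chromosomes and divides the cell. Most tubular cells of an adult kidney are at rest, and they can re-enter the cycle after injury, while lymphocytes and macrophages that enter the tissue can also divide.

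In brief, these genes varied more among the 96-week kidneys than among the young ones. Of 44 members, 39 (88.6%) had a higher mean at 96 weeks, against 43.4% of all genes, but only the helicase subunits Mcm6 and Mcm7 passed the test across all genes. The largest values came mostly from a single old kidney, replicate 4, which was the highest of all 9 kidneys for 36 members (81.8%, against 12.8% of all genes). Without replicates 3 and 4 the median log2 difference of the members was 0.04, in place of 0.23. These were the old kidneys with the highest average level of these genes, so leaving them out had to lower the average difference.

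The arrays resembled each other closely, with pairwise correlations over genes of 0.982 to 0.9967 and array medians of 6.22 to 6.29. Replicate 4 at 96 weeks had the lowest array weight of the 9 arrays, 0.576, and replicate 1 at 14 weeks the highest, 1.6. These weights were estimated by limma from the same expression values. A kidney that differs from its age group thus also gets a low weight, and the weight is no separate measure of array quality. Signal over background was not given, so dim genes cannot be told from absent ones, and 12 of the 44 members lay below the 30th percentile of mean signal: Mcm3, Cdc6, Gins1, Cdk1, Plk1, Bub1, Bub1b, Tpx2, Kif4, Nusap1, Prc1 and Cenpe. In whole tissue, fewer cells of a type and less RNA per cell cannot be told apart.

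Promoter windows are shown for 4 genes because they represent the replication and mitotic genes whose values the results turn on. Each window runs from 250 bases before to 50 bases after the annotated start (RefSeq, GRCm38.p6), printed 5′ to 3′ on the strand of the gene. Capitals mark the motifs searched on both strands: E2F motifs (TTGGCGC or TTCCCGC), the cell cycle homology region or CHR (TTTGAA or TTTAAA), and the CCAAT box (CCAAT). Mcm6 lies on the minus strand at chr1:128359656-128359955 and held 2 E2F motifs, 2 CCAAT boxes and 0 CHR motifs. Mcm7, minus strand at chr5:138171834-138172133, held 2 E2F motifs, 3 CCAAT boxes and 0 CHR motifs, with an E2F motif and a CCAAT box that share letters. It has 2 listed windows, of which the one listed first was used. Top2a, minus strand at chr11:99024140-99024439, held 2 CHR motifs, 6 CCAAT boxes and 0 E2F motifs. Kif11, plus strand at chr19:37376132-37376431, held 1 CHR motif, 1 CCAAT box and 0 E2F motifs.
Mcm6: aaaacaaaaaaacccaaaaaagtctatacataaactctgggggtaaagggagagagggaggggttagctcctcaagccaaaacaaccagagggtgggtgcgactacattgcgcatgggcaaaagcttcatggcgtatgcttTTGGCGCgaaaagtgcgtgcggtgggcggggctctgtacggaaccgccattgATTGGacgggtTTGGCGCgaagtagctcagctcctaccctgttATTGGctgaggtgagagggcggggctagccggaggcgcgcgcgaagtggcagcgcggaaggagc
Mcm7: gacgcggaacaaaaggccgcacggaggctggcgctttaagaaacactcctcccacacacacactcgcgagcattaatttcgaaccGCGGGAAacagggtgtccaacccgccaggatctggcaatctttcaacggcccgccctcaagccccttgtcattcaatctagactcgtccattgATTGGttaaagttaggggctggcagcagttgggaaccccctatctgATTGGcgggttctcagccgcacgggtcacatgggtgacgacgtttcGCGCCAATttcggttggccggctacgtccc
Top2a: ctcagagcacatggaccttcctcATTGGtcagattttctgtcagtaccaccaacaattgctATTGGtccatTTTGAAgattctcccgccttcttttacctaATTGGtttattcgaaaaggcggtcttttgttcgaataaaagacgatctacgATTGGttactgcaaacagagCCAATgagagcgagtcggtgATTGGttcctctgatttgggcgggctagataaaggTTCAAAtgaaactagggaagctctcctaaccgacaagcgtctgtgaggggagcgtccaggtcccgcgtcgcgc
Kif11: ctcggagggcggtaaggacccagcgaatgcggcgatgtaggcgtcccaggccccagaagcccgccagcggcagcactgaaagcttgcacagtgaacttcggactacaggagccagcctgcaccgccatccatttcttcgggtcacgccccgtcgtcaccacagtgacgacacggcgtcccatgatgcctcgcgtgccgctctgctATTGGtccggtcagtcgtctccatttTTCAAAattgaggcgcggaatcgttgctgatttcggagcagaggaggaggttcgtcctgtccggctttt

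Windows were listed for 35 of the 44 members and for 15614 genes of the array. An E2F motif was present in 14 of 35 member windows, against 9.49% of all windows. A CHR motif was present in 23 (65.7%), against 24.0%, and a CCAAT box in 28 (80.0%), against 38.2%. The 14 replication and S phase genes held an E2F motif in 8 windows (57.1%) and a CHR motif in 5 (35.7%), whereas the 17 genes of mitosis and chromosome structure held them in 4 (23.5%) and 15 (88.2%). These matches describe letters in a window and are neither bound sites nor causes of the values that follow.

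**Figure D1:**
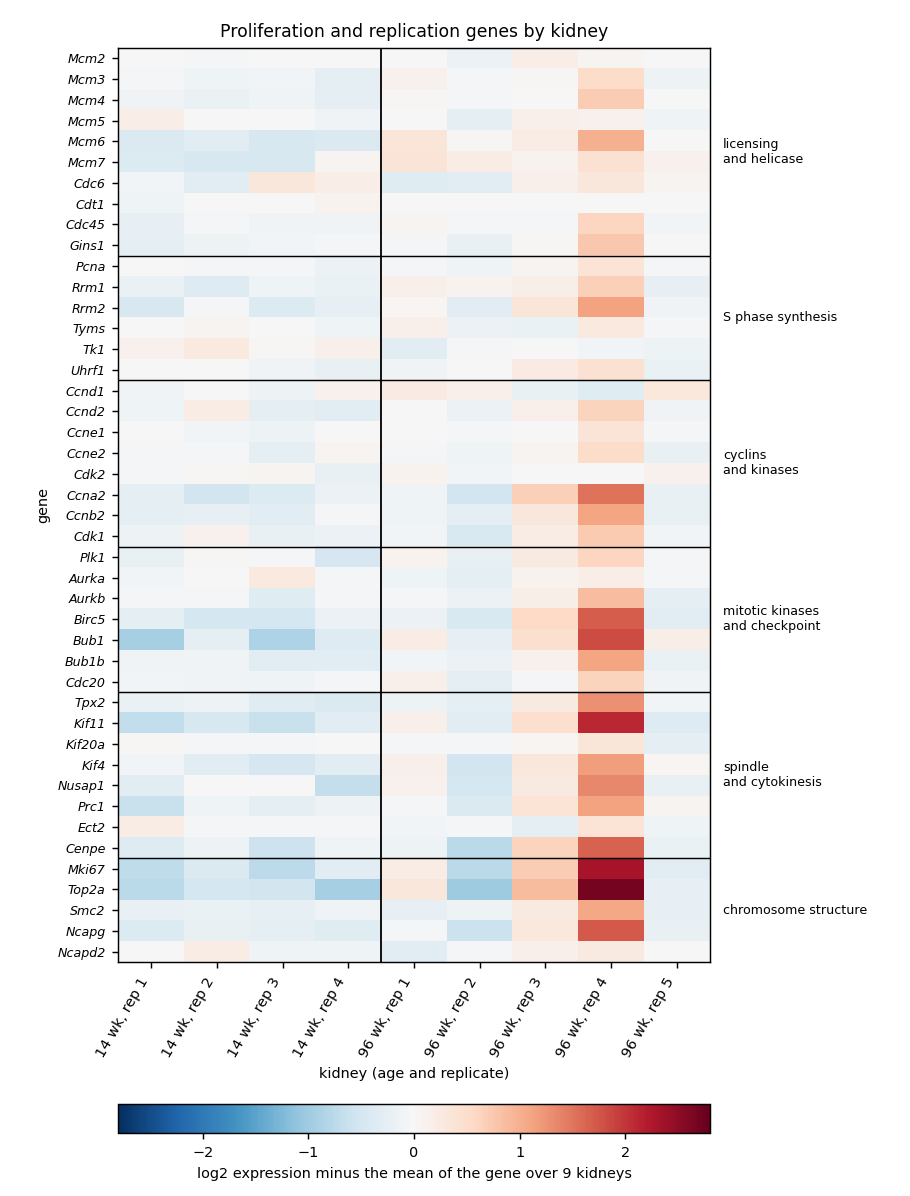
Log2 expression of each of the 44 genes (rows, blocks are roles) in each of the 9 kidneys (columns), minus the mean of that gene over all kidneys. Replicate 4 at 96 weeks is the highest column for 36 of the 44 genes, and the difference is widest in the mitotic and chromosome blocks.

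The first question was whether genes that license and unwind origins differed with age. Mcm6 and Mcm7, subunits of the replicative helicase, rose at 96 weeks, and they were the only 2 of the 44 members with an adjusted p under 0.05 in limma and a higher level (4.55% of members, against 4.31% of all genes). No member was lower at that threshold, against 2.40% of all genes. By an unadjusted p under 0.05 in limma, 4 members were higher (9.09%, against 13.3% of all genes) and 1 was lower (2.27%, against 15.3%).

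Mcm6 was at 7.24, 7.32, 7.19 and 7.24 in the young kidneys and at 7.98, 7.67, 7.85, 8.64 and 7.63 in the old ones. Every old kidney was above every young one, and replicate 4 was the highest. The log2 difference was 0.71 ± 0.18 (SE; 95% interval 0.32 to 1.10; 1.63-fold), with an adjusted p of 0.0412 from limma and an exact permutation p of 0.016. Without replicates 3 and 4 it was 0.51 ± 0.09 with a limma adjusted p of 0.021. The adjusted p from limma was 0.0107 without replicate 4 alone. It was between 0.0505 and 0.104 when any 1 young kidney, or old replicate 1, 2 or 3, was left out, so the call then missed the threshold at a log2 difference of 0.69 to 0.78.

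Mcm7 was at 5.90, 5.84, 5.83 and 6.35 at 14 weeks and at 6.63, 6.50, 6.38, 6.70 and 6.40 at 96 weeks. The ages did not overlap, although young replicate 4 lay just below the lowest old kidney. This gave a log2 difference of 0.54 ± 0.11 (SE; 95% interval 0.29 to 0.80; 1.46-fold), with an adjusted p of 0.0247 from limma and an exact permutation p of 0.0079, the smallest that 126 splits of 9 kidneys can give. Unlike most members it varied less among old kidneys (SD 0.14, n = 5) than among young ones (SD 0.25, n = 4). Without replicates 3 and 4 the log2 difference was 0.53, with a limma adjusted p of 0.0556. The limma adjusted p was 0.0667, 0.0643 and 0.0675 without young replicate 1, 2 or 3 and 0.0557 without old replicate 1, at log2 differences of 0.49 to 0.51.

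The other 4 MCM subunits did not pass. Mcm4 was at 6.76, 6.68, 6.73 and 6.58 and then at 6.89, 6.80, 6.84, 7.57 and 6.86. All old kidneys were above all young ones by a narrow margin, except replicate 4, which stood 0.72 above the mean of old replicates 1, 2 and 5. The log2 difference was 0.31 ± 0.14, with an adjusted p of 0.192 from limma and an exact permutation p of 0.024. Mcm2, Mcm3 and Mcm5 had log2 differences of 0.04, 0.22 and -0.04, with limma adjusted p-values of 0.681, 0.239 and 0.792. The 6 subunits form 1 ring, and their differences between ages thus ran from -0.04 to 0.71 on the log2 scale.

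Loading and firing factors gave small differences. Cdc6 and Cdt1, which load the helicase, had log2 differences of -0.06 and 0.00, and Cdt1 read the same 5.84 in all 5 old arrays. A value shared by 2 or more of the 9 arrays, of either age, occurred in 16 members and in 57.3% of all genes. Cdt1 shared its value over 6 arrays, the most among the members. Cdc45 and Gins1, helicase partners that act at firing, were at 6.50 and 5.46 in old replicate 4, whereas the other old kidneys lay between 5.83 and 5.98 for Cdc45 and between 4.48 and 4.71 for Gins1. Over all 5 old kidneys their log2 differences were 0.22 and 0.23, with limma adjusted p-values of 0.274 and 0.365.

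Of the 6 genes of nucleotide supply and DNA synthesis, 5 had a higher mean at 96 weeks and 5 were highest in old replicate 4, and Tk1 was the exception to both. Thymidine kinase Tk1, which salvages thymidine, was at 8.56, 8.71, 8.47 and 8.57 at 14 weeks and at 8.15, 8.38, 8.42, 8.36 and 8.30 at 96 weeks. The ages did not overlap, and old replicate 4 was in the middle of its group. This gave a log2 difference of -0.26 ± 0.07 (SE; 95% interval -0.41 to -0.10), with a limma adjusted p of 0.0521, just short of the threshold, and an exact permutation p of 0.0079. It was -0.30 without replicates 3 and 4, with a limma adjusted p of 0.0606. A second probe set for Tk1 gave the same log2 difference of -0.26, with overlapping ages and an exact permutation p of 0.032.

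Rrm1, the large subunit of ribonucleotide reductase, was at 7.14, 6.97, 7.21 and 7.14 and then at 7.47, 7.42, 7.48, 7.98 and 7.09. The ages overlapped through old replicate 5, which was below 3 of the young kidneys. Its log2 difference was 0.37 ± 0.14, with a limma adjusted p of 0.133 and an exact permutation p of 0.048. Rrm2, the subunit of the same enzyme that is made in S phase, had a log2 difference of 0.50 ± 0.25 (limma adjusted p of 0.207) and reached 7.61 in old replicate 4 against 6.17 to 6.83 in the other old kidneys. Pcna, the sliding clamp of the polymerases, differed by 0.11, thymidylate synthase Tyms by 0.00, and Uhrf1, which maintains DNA methylation at the fork, by 0.16.

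**Figure D2:**
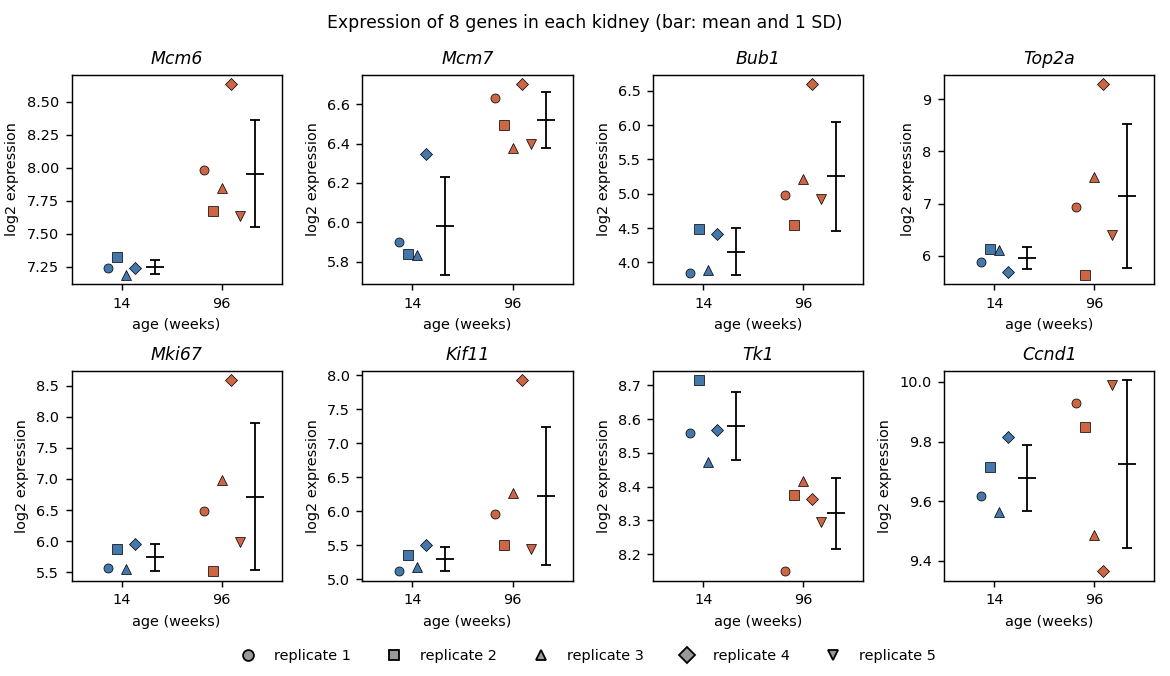
Log2 expression of 8 genes in each kidney at 14 and 96 weeks (x axis, age in weeks; y axis, log2 expression on a scale of its own for each gene; symbols mark replicates, bars are the mean and 1 SD of each age). Mcm6, Mcm7 and Tk1 separate the ages, Top2a, Mki67 and Kif11 are spread out at 96 weeks by replicate 4, and Ccnd1 is lowest in replicates 3 and 4.

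Among cyclins and cyclin-dependent kinases no member passed the test. Ccna2, the cyclin of S phase and early mitosis, was at 5.90, 5.66, 5.80 and 6.01 at 14 weeks and at 6.08, 5.63, 6.85, 7.71 and 5.96 at 96 weeks. Replicates 4 and 3 were far above the young kidneys, and the other 3 old kidneys were among or next to them. The log2 difference was 0.61 ± 0.36 with a limma adjusted p of 0.276, and it was 0.05 ± 0.12 without those 2 kidneys. Ccnb2, a mitotic cyclin, and its partner kinase Cdk1 had log2 differences of 0.36 and 0.18, which were 0.00 and -0.09 without replicates 3 and 4.

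Ccnd1, the D-type cyclin that starts the passage through G1, went the other way in the same 2 kidneys. It was at 9.62, 9.72, 9.57 and 9.82 at 14 weeks and at 9.93, 9.85, 9.49, 9.37 and 9.99 at 96 weeks. Old replicates 4 and 3 were the lowest of all 9 kidneys, and old replicates 1, 2 and 5 were above every young one. This gave a log2 difference of 0.05 ± 0.13 over all kidneys (limma adjusted p of 0.832), and its sign turned under cyclic loess (-0.03), so no direction is given. Without replicates 3 and 4 it was 0.25 ± 0.07, with a limma adjusted p of 0.0877. Ccnd2, Ccne1, Ccne2 and Cdk2, which act at or before the entry into S phase, had log2 differences of 0.08 to 0.22. Ccnd1 was named after its values had been seen.

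No mitotic kinase or checkpoint gene passed the test over all kidneys, and their log2 differences ran from -0.07 to 1.09. Bub1, a kinase of the spindle checkpoint, was at 3.84, 4.49, 3.89 and 4.41 at 14 weeks and at 4.98, 4.54, 5.21, 6.60 and 4.93 at 96 weeks. All old kidneys were above all young ones, and replicate 4 was more than 1 log2 unit above the next. The log2 difference was 1.09 ± 0.35 (SE; 95% interval 0.30 to 1.88; 2.13-fold), with a limma adjusted p of 0.0874 and an exact permutation p of 0.016. Without replicate 4 alone the difference was 0.76 and the limma adjusted p 0.0468, and without replicates 3 and 4 they were 0.66 and 0.077. Bub1 is one of the dim genes named above.

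Mcm6 and Bub1 were the 2 members more than 1.5-fold higher with an unadjusted p under 0.05, against 1.28% of all genes, and 0 were lower by that rule, against 0.321%. That count was 9 without old replicate 2 and 1 without old replicate 4. Mcm4, Mcm6, Mcm7 and Bub1 were the 4 members whose old kidneys were all above the young ones (9.09%, against 7.49% of all genes). Tk1 was the 1 member whose old kidneys were all below (2.27%, against 5.79%), by its brighter probe set, while its other probe set overlapped between ages.

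Birc5 (survivin), which targets Aurora B to the centromere, was at 5.70, 5.44, 6.41, 7.56 and 5.58 in the old kidneys, against 5.38 to 5.71 in the young ones. Only replicates 3 and 4 lay above the young range. Its log2 difference was 0.62 ± 0.38 (limma adjusted p of 0.291), and 0.05 without those 2 kidneys. Of the other members of this role, the checkpoint kinase Bub1b and Aurkb were 1.25 and 1.02 higher in replicate 4 than the mean of old replicates 1, 2 and 5. Plk1, Cdc20 and Aurka, which act at entry into and exit from mitosis, had log2 differences of 0.31, 0.15 and -0.07 between ages.

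All 8 spindle and cytokinesis genes were highest in old replicate 4. Kif11, the motor that separates the spindle poles, was at 5.12, 5.36, 5.18 and 5.50 at 14 weeks and at 5.96, 5.50, 6.27, 7.92 and 5.44 at 96 weeks. The ages overlapped, with old replicate 5 below 1 young kidney. This gave a log2 difference of 0.93 ± 0.43 (SE; 95% interval -0.02 to 1.88), with a limma adjusted p of 0.183 and an exact permutation p of 0.063, and it was 0.34 ± 0.14 without replicates 3 and 4. Cenpe, a motor of the kinetochore, Nusap1 and Tpx2, which bind spindle microtubules, and Kif4 and Prc1, which organise the midzone, stood 1.25 to 2.0 above old replicates 1, 2 and 5 in replicate 4. Ect2 and Kif20a, which act in cytokinesis, had log2 differences between ages of -0.04 and 0.03.

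The genes of chromosome structure held the widest spread. Top2a, the topoisomerase that disentangles sister chromatids, was at 5.87, 6.14, 6.11 and 5.69 at 14 weeks and at 6.93, 5.63, 7.52, 9.29 and 6.39 at 96 weeks. Replicate 2 was below all young kidneys and replicate 4 was 2.97 above the mean of replicates 1, 2 and 5. The log2 difference of 1.20 ± 0.59 (SE; 95% interval -0.10 to 2.50) was the largest among the members, with a limma adjusted p of 0.203 and an exact permutation p of 0.11. It was 0.36 without replicates 3 and 4. A second probe set for Top2a, lying at 3.18 and 3.30 on average in the 2 ages, differed by 0.12 (exact permutation p of 0.49).

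Mki67, the antigen Ki-67 that coats mitotic chromosomes and marks cycling cells in pathology, was at 5.57, 5.88, 5.55 and 5.96 and then at 6.49, 5.52, 6.98, 8.58 and 5.99. Old replicate 2 was the lowest of all 9 kidneys and replicate 4 the highest. The log2 difference was 0.98 ± 0.50 (SE; 95% interval -0.14 to 2.09), with a limma adjusted p of 0.222 and an exact permutation p of 0.13, and it was 0.26 without replicates 3 and 4. The condensin subunits Ncapg and Smc2 were 2.0 and 1.29 above the mean of old replicates 1, 2 and 5 in replicate 4, and Ncapd2, a further condensin subunit, differed by 0.02 between ages. Mki67 and Birc5 were named after their values had been seen.

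**Figure D3:**
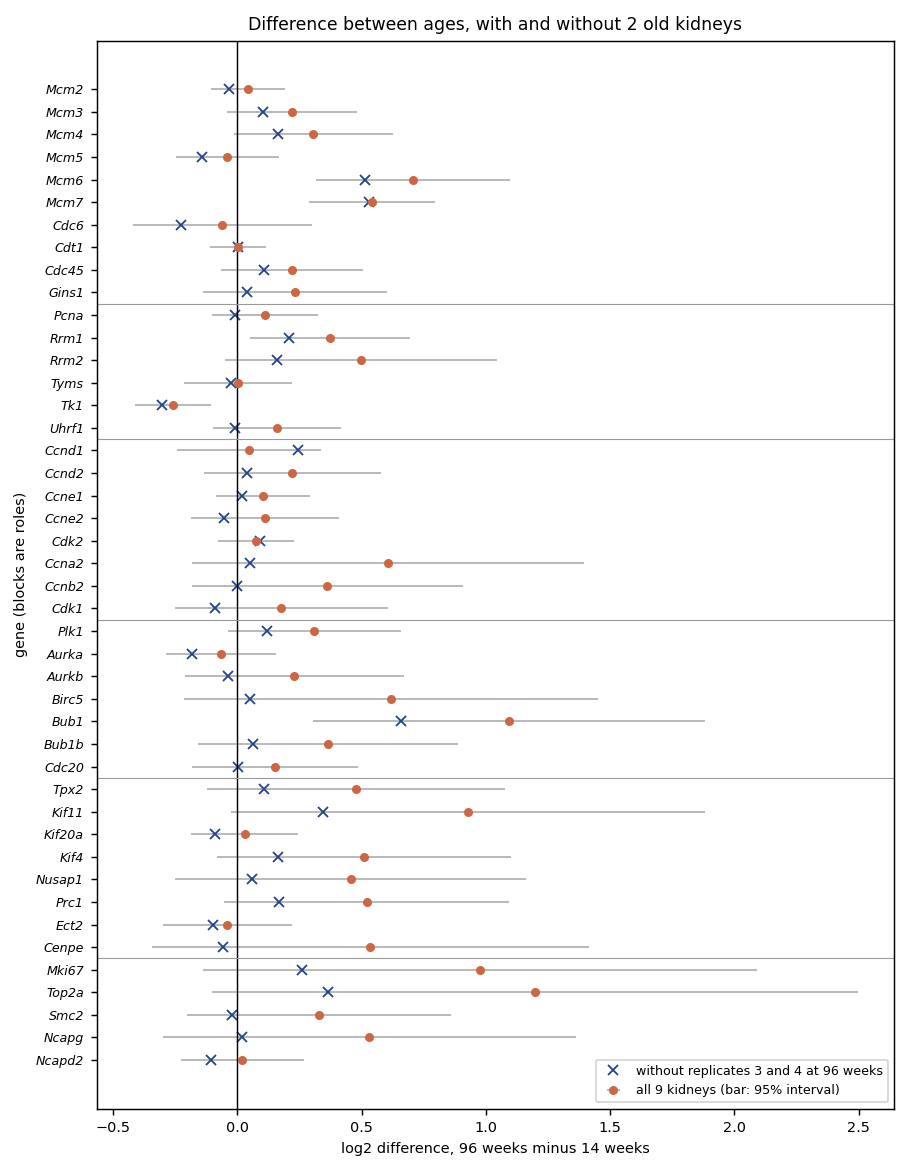
Log2 difference between 96 and 14 weeks for each of the 44 genes (blocks are roles), from all 9 kidneys with its 95% interval (circles and bars) and without old replicates 3 and 4 (crosses). The crosses of Mcm7 and Tk1 stay near their circles, that of Mcm6 lies at 0.51 against 0.71, and those of most mitotic genes lie nearer to 0.

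The spread among the old kidneys was the most general property of the set. The SD was larger at 96 than at 14 weeks for 41 members (93.2%, against 58.9% of all genes), and the median SD was 0.12 at 14 weeks and 0.32 at 96 weeks. Without replicates 3 and 4, the old kidneys in which these genes were highest on average, it was larger for 22 of 44 members (against 48.4% of all genes). The median ratio of the SDs was 3.06 for the members and 1.19 for all genes.

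Replicate 4 was above every young kidney for 37 members (84.1%, against 25.3% of all genes), and replicate 3 for 30 (68.2%, against 23.4%). Replicate 4 was highest with replicate 3 second for 25 members (56.8%, against 3.28%). In 17 members (38.6%, against 1.37%) replicate 4 exceeded the mean of old replicates 1, 2 and 5 by more than 1 log2 unit. The median excess of replicate 4 over those 3 kidneys was 0.70 for the members and -0.01 for all genes, and that of replicate 3 was 0.25 and 0.00.

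The size of that excess differed by role. Its median was 0.52 for licensing and helicase genes, 0.49 for S phase synthesis, 0.66 for cyclins and kinases, 1.02 for mitotic kinases and checkpoint genes, 1.36 for spindle and cytokinesis genes and 2.0 for chromosome structure. The genes more than 1 log2 unit above numbered 0 of 10, 1 of 6, 2 of 8, 4 of 7, 6 of 8 and 4 of 5 in the same order. Since all 44 values come from 1 kidney, this order describes that kidney and has no test.

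Without replicates 3 and 4, 27 members (61.4%, against 44.7% of all genes) had a higher mean at 96 weeks. Mcm6 was the 1 member with a limma adjusted p under 0.05 and a higher level, against 3.71% of all genes, and 0 were lower, against 1.43%. Bub1 was the 1 member past 1.5-fold, against 0.913% of all genes. The old kidneys were all above the young ones for 5 members (11.4%, against 12.7%). The medians by role then lay between -0.01 and 0.08. Leaving out replicate 4 alone gave a median of 0.11 over the members, and after cyclic loess with all kidneys it was 0.31.

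The mean levels of macrophage, plasma and B cell, and T and NK cell markers were also high in old replicate 4. Some single markers were not. Csf1r of macrophages was at 8.50 there and 8.33 in replicate 3, against 8.63, 8.78 and 8.61 in old replicates 1, 2 and 5. Igha was at 8.68 in replicate 4, below old replicates 2 and 5 (8.71 and 8.79). Neutrophil markers had a centred mean of -0.04 in replicate 4. By centred mean, macrophage markers ranked the old replicates as the proliferation genes did: 4, 3, 1, 5 and 2. Plasma and B cell markers gave the same order, with replicates 3 and 1 close to each other. Of these, Cd79a, Cd79b and Ms4a1 were higher in replicate 1 than in replicate 3, and the other measured ones were lower. T and NK cell markers differed from the order of the proliferation genes in that replicate 1 was above replicate 3. The centred mean log2 level of 7 T and NK cell markers was -0.37 to -0.29 in the young kidneys and 0.66, -0.43, 0.03, 1.49 and -0.35 in old replicates 1 to 5, and all 7 were highest in replicate 4. For example, the T cell receptor component Cd3g was at 5.68 to 6.08 in the young kidneys and at 7.54, 5.77, 6.98, 9.43 and 6.62 in the old ones. Macrophage markers (9 genes) were at -0.57 to -0.46 and then at 0.21, -0.12, 0.89, 1.1 and -0.01, with 6 highest in replicate 4. Plasma and B cell markers (9 genes) were at -0.85 to -0.77 and then at 0.76, 0.11, 0.81, 1.39 and 0.21. The proliferation genes had centred means of -0.21 to -0.12 in the young kidneys. In old replicates 1 to 5 they were at 0.01, -0.23, 0.19, 0.82 and -0.09. Old replicate 1 was high in plasma and B cell and in T and NK cell markers. Old replicate 3 was high in macrophage and in plasma and B cell markers. By limma, 0 T and NK cell, 3 macrophage and 2 plasma and B cell markers were higher at an adjusted p under 0.05, against 4.31% of all genes.

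Markers of tubular injury stood out in another old kidney. Their centred mean (10 genes) was -0.37 to -0.35 at 14 weeks and 0.08, -0.06, 1.10, 0.36 and -0.02 at 96 weeks, and 8 of the 10 were highest in replicate 3. Havcr1, the kidney injury molecule of proximal tubules, was at 9.47 in replicate 3 and at 7.25 in replicate 4. Proximal tubule markers (7 genes) were at -0.04 to 0.01 in the young kidneys and at 0.07, 0.18, -0.05, -0.15 and 0.00 in the old ones. The phosphate transporter Slc34a1, which defines these cells, was at 11.5 in all 4 young kidneys and at 11.3 to 11.7 in the old ones. Neutrophil markers (5 genes) lay between 0.04 and 0.12 and then between -0.14 and 0.01. Markers of erythroid cells, the loop of Henle, the distal tubule and collecting duct, podocytes, endothelium, fibroblasts and mural cells, and adipocytes (2 to 8 genes each) had median log2 differences between ages of -0.22 to 0.09. Among these, fibroblast and mural markers (6 genes) had centred means of -0.17 to -0.02 in the young kidneys and of -0.18, 0.00, 0.29, 0.21 and -0.01 in old replicates 1 to 5, so that replicates 3 and 4 were the highest. Dcn, a proteoglycan of fibroblasts, was at 10.50 in replicate 4, next highest in replicate 3, and at 9.36 to 9.73 in the other 7 kidneys. Acta2 was also highest in replicate 4, whereas Col1a1, Col1a2, Col3a1 and Pdgfrb were highest in replicate 3. In replicate 4, Col1a1 was at 7.12, below the young kidneys (7.13 to 7.18), and Col1a2 at 7.03 was within their range. Col3a1 and Pdgfrb, at 6.80 and 7.36 in replicate 4, were above the young kidneys. Distal tubule and collecting duct markers (8 genes) were at 0.02 to 0.08 and then at 0.07, 0.15, -0.43, -0.10 and 0.08, with replicate 3 the lowest. Against the mean of old replicates 1, 2 and 5, replicate 3 was at -2.14 for Pvalb, -0.92 for Calb1 and -0.62 for Slc12a3. By the same measure Aqp3 and Scnn1g were at 0.04 and 0.11, and Aqp2, Atp6v1g3 and Slc4a1 lay between -0.32 and -0.13. The part of these cells, and of injury, in the values of the proliferation genes was not tested.

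**Figure D4:**
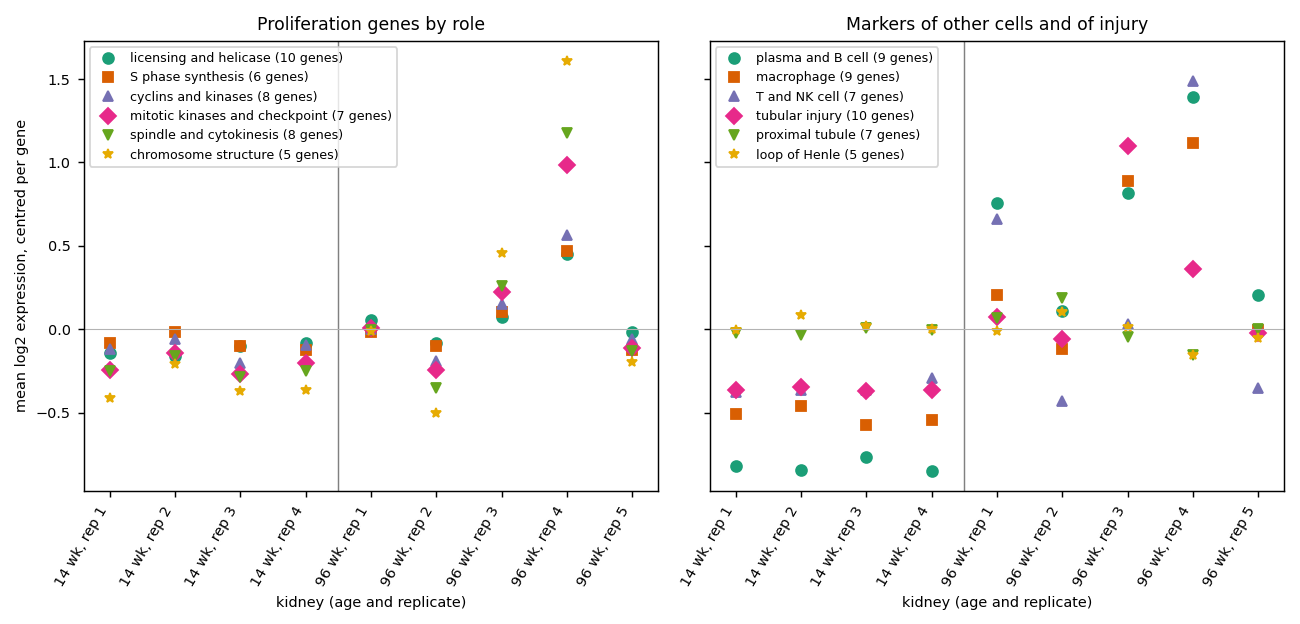
Mean log2 expression, centred on each gene's mean over the 9 kidneys, for the 6 roles of the proliferation genes (left) and for markers of immune cells, injury and tubules (right), in each kidney (x axis). Chromosome structure genes reach 1.61 and T and NK cell markers 1.49 in old replicate 4, while injury markers are highest, at 1.10, in replicate 3.

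Other genes of the same pathway, 129 measured of 131 named, are given from a list of replication, mitosis and cell cycle control genes. By limma, 3 were higher and 1 was lower at an adjusted p under 0.05, against 4.31% and 2.40% of all genes. Their median log2 difference was 0.14, and 0.01 without replicates 3 and 4. It was 0.20 for the mitosis genes, 0.09 for the replication genes and 0.04 for the control genes. Replicate 4 was the highest kidney for 80 (62.0%), and for 44 of the 52 other mitosis genes, 22 of the 45 other replication genes and 14 of the 32 genes of cell cycle control. None of the 52 mitosis genes passed at an adjusted p under 0.05 in limma, and 6 (11.5%) had an unadjusted p under 0.05 and a higher level, against 13.3% of all genes.

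Pold2, Cdk4, Cdk6 and Lin52 were the 4 that passed, and the ages did not overlap for any of them. Pold2, a subunit of the replicative DNA polymerase delta, was at 7.32, 7.29, 7.14 and 7.33 at 14 weeks and at 7.72, 7.83, 7.58, 7.75 and 7.76 at 96 weeks. Replicate 4 lay within its group. This gave a log2 difference of 0.46 ± 0.06, with a limma adjusted p of 0.00574, and it was 0.50 with 0.00912 without replicates 3 and 4. Cdk4, a G1 kinase that D-type cyclins activate, was at 8.81 to 9.01 in the young kidneys and at 9.18, 9.28, 9.51, 9.30 and 9.15 in the old ones. Its homologue Cdk6 was at 7.69 to 7.89 and then at 8.05, 7.94, 8.23, 8.08 and 7.95. Both were highest in old replicate 3. Cdk4 and Cdk6 rose by log2 differences of 0.35 ± 0.08 and 0.28 ± 0.07 (limma adjusted p of 0.0305 and 0.044), and both calls were lost without replicates 3 and 4 (0.0591 and 0.0998). Lin52, a subunit of the MuvB complex that represses cell cycle genes at rest, was at 7.51 to 7.59 in the young kidneys and at 7.38, 7.20, 7.20, 7.34 and 7.38 in the old ones. It fell by 0.23 on the log2 scale (limma adjusted p of 0.0388), or 0.22 with an adjusted p of 0.0842 without those kidneys.

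Dbf4, the activator of the replication kinase Cdc7, Shcbp1, a midbody protein, and the growth regulator Myc were the 3 other pathway genes past 1.5-fold with an unadjusted p under 0.05 in limma. All 3 were higher at 96 weeks, of 129 measured, against 1.28% of all genes higher by that rule. They had log2 differences of 0.77 ± 0.30, 0.73 ± 0.31 and 0.64 ± 0.19, with limma adjusted p-values of 0.132, 0.160 and 0.0725. Dbf4 was at 7.79 in old replicate 4, against 6.18 to 6.80 in the other old kidneys, and Shcbp1 was at 7.25, against 5.53 to 5.83. Myc was highest in old replicate 3, at 8.68, and at 8.42 in replicate 4.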

How the data were processed

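RNA of whole kidney from 9 female mice was hybridised to Affymetrix Mouse Gene 1.0 ST arrays, 1 array per mouse. Per the labels and methods, the authors ran RMA with quantile normalization (Affymetrix Power Tools 1.12.0), and the deposited log2 expression table covers 35557 probe sets. Probe sets carry no coordinates here, since their build is not given in the sources used here. The number of arrays limits the precision. No scan date or other batch was used here.

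Probe sets with 1 gene symbol (21789) were kept, those with several (1621) or none (12147) were left out, and the one with the highest mean stood for each of 19938 genes. The 96-week and 14-week groups were fitted over all genes in R 4.3.3 with limma 3.58.1 (lmFit, eBayes), with Benjamini-Hochberg adjustment and a threshold of 0.05. A threshold of 1.5-fold with an unadjusted p under 0.05 followed the methods. Exact two-sided permutation tests used all 126 splits (Python 3.11.15, scipy 1.17.1). The fits were tested on simulated data. RMA is fitted over all arrays together, so values of 1 array depend in part on the others.

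Values in every kidney were given for members at an adjusted p under 0.05, with the smallest p in their role, with ages that do not overlap, or past 1.5-fold. Other members and the other pathway genes at an adjusted p under 0.05 were described by their values. Rrm1, Ccnd1, Birc5 and Mki67 were named beyond this rule after their values had been seen. The members, roles, pathway and marker lists and motifs were chosen with earlier results of these data known. Alternatives were the t-test of the methods, array weights, a filter on dim genes (below the 30th percentile), repeated quantile normalization, cyclic loess, the mean of probe sets, a replicate block, and leaving out each array or old replicates 3 and 4.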

Additional observations from a re-analysis of the deposited data

Results flagged for a closer look

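Each of the 44 genes was examined at each age, 88 groups in all, for a kidney that lay far from the others of its age, and 9 groups held one. For normal values without ties, chance alone gives about 1 such group in 20. The 88 groups share the same 9 kidneys. The flagged young groups of Mcm2 and Ect2 and the flagged old group of Cdc45 hold a value shared by arrays. The count of 9 therefore cannot be tested against that rate. In 5 of the 9 groups it was replicate 4 at 96 weeks, each time as the highest kidney: Mcm4 at 7.57 with the nearest old kidney at 6.89, Cdc45 at 6.50 with the nearest at 5.98, Gins1 at 5.46 with the nearest at 4.71, Ccne1 at 5.93 with the nearest at 5.58, and Bub1b at 6.22 with the nearest at 5.22. The other 4 were young kidneys. Mcm7 was at 6.35 in replicate 4, with the nearest young kidney at 5.90, and this kidney sets the narrow gap between the ages for that gene. Mcm2 was at 6.68 in replicate 2 with the nearest at 6.73, Aurkb at 5.99 in replicate 3 with the nearest at 6.27, and Ect2 at 7.52 in replicate 1 with the nearest at 7.29.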

How the results depend on the processing

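Over 17 alternatives, the median log2 difference of the members stayed positive, from 0.04 without old replicates 3 and 4 to 0.31, and 0.11 without old replicate 4 alone. The count of members higher at 96 weeks (2) was 1 under cyclic loess, repeated quantile normalization and without old replicates 3 and 4, 0 under the methods' t-test, and 0 to 3 with 1 kidney left out. Members lower numbered 1 (Tk1) in place of 0 with array weights, cyclic loess, the filter on dim genes and repeated quantile normalization. Members past 1.5-fold (2) numbered 6 under cyclic loess, 5 under repeated quantile normalization, 1 with the filter on dim genes or without old replicates 3 and 4, and 1 to 9 with 1 kidney left out.

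Other pathway genes higher (3) numbered 7 with the filter on dim genes, 1 under the methods' t-test or without old replicates 3 and 4, and 1 to 2 with 1 kidney left out, the lowest count arising without young replicate 2, 3 or 4. Those lower (1) numbered 2 under repeated quantile normalization, 0 under the methods' t-test, and 0 to 1 with 1 kidney left out. The log2 difference of Ccnd1 (0.0461) turned to -0.0267 under cyclic loess and to -0.0257 under repeated quantile normalization, and it ran from -0.0204 (without old replicate 5) to 0.1359 (without old replicate 4) with 1 kidney left out. The cause was not tested. Of the 44 members, 26 kept their sign throughout.

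Replicate numbers do not pair the mice: deviations of same-numbered kidneys correlated at -0.04 to 0.08, and 2 of 8 arrays correlated best with their own number. With the replicate number as a block, to which old replicate 5 adds nothing, members higher numbered 1, members past 1.5-fold 7, other pathway genes higher 1 and lower 0, and the log2 difference of Ccnd1 was -0.0204. Signal over background was not given, so the 12 dim members have no detection limit.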
